A study of Mus musculus with 18 samples.

Results

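The kinase genes described here are the mRNAs of the mouse hippocampus that carried at least 1 peak of N4-acetylcytidine (ac4C) in any of 6 mice and whose symbol belongs to a named protein or lipid kinase family, such as Camk, Mapk, Cdk, Prk, Pik3, Csnk, Ulk, Wnk, Mark, Ttbk, Hipk, Dyrk, Gsk3, Akt, Mtor or Stk. They were chosen by symbol alone and numbered 154 of the 7598 genes with a listed peak. Of these, 120 were classed as protein kinases, the class of every gene given no other role, whether or not its kinase domain is active. Another 5 were classed as lipid kinases and 14 as regulatory subunits or activators. There were 2 inhibitors, 3 scaffolds and 1 gene set apart as a pseudokinase. The other 9 are partner proteins, or genes whose symbol fits the families for another reason, such as Prkcsh, which encodes a glucosidase subunit of the endoplasmic reticulum.

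Hippocampus was taken from 6-month-old mice of 2 genotypes, WT and 5xFAD, with 3 mice in each. The 5xFAD strain carries transgenes with familial Alzheimer's disease mutations, among them human APP with the Swedish, Florida and London mutations, under the Thy-1 promoter, which drives expression in neurons. The line was made on a C57BL/6J background, and the labels name no treatment. The sex of these mice is not given by the labels. From each mouse, fragmented RNA was sequenced as input, after capture with an anti-ac4C antibody (IP) and after capture with control IgG, giving 18 libraries in all. The WT mice and the 5xFAD mice are each called by the replicate number in their label.

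N4-acetylcytidine is an acetyl mark that the acetyltransferase Nat10 places on cytidines of rRNA, tRNA and mRNA, and in mRNA it has been linked to stability and to translation. Kinases transfer phosphate to proteins or lipids and form the relay systems of the neuron. The calcium/calmodulin-dependent kinases and protein kinases A and C act at the synapse, the MAP kinase cascades carry growth and stress signals, and the PI3K, AKT and mTOR pathway sets growth and autophagy. Several kinases, among them glycogen synthase kinase 3, Cdk5 and the MARK and TTBK families, phosphorylate tau, the microtubule protein that forms the tangles of Alzheimer's disease.

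The deposited values are fold enrichments, a ratio to input in each peak. The methods describe it as the acRIP signal less the IgG signal, divided by input, while the peaks were called against input alone, and which of these the deposited column holds was not settled from the tables. Here the fold enrichments of all peaks of an mRNA in a mouse were summed, and 0 means that no peak was listed, not that the mark was absent. No read counts were given, so the depth behind each value is unknown. In whole tissue, fewer cells of a type and less RNA per cell cannot be told apart. The libraries were not on a common scale. 5xFAD mouse 3 stood apart, with a median fold enrichment on kinase peaks of 13.3, against 7.61 to 8.19 in the other 5 mice. The same held for peaks on other mRNAs, at 13.05 against 6.86 to 7.62. The 2028 mRNAs with a peak in every mouse were therefore used to give each mouse 1 scale factor, from 1.12 to 1.42 in WT and from 0.662 to 0.918 in 5xFAD, and results are also given on that single scale. Kinase peaks had a median false discovery rate, as the caller gave it, of 45.8% to 58.9% in WT and of 36.1%, 39.96% and 100% in the 5xFAD mice, so single peaks are weak evidence and recurrence between mice carries more weight.

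Kinase mRNAs with a peak numbered 98, 99 and 97 in WT mice 1, 2 and 3, and 114, 112 and 95 in 5xFAD mice 1, 2 and 3. They held 198, 197 and 182 peaks in WT and 264, 242 and 219 in 5xFAD, which was 2.36% to 2.59% of all peaks of a mouse. The number of peaks per kinase gene was 1.88 to 2.02 in WT and 2.16 to 2.32 in 5xFAD, and in each of the 6 mice it exceeded that of the other mRNAs, at 1.74 to 1.82 and 1.91 to 1.99. An mRNA was taken as reliable in a genotype when it had a peak in at least 2 of the 3 mice. By that rule 113 kinase genes were reliable (73.4%, against 71.7% of all genes). Of these, 87 were reliable in both genotypes, 17 only in 5xFAD and 9 only in WT. The 17 were 15.0% of the reliable kinase genes, where 18.5% of all reliable mRNAs were of that class, and the 9 were 7.96%, where the share in all was 10.8%. Peaks in all 6 mice were found on 54 kinase genes (35.1%, against 26.7% of all genes), and 22 (14.3%, against 19.0%) had a peak in a single mouse.

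Most kinase peaks lay within coding sequence. The share in the coding region was 53.9% ± 1.15 in WT and 56.3% ± 2.33 in 5xFAD (SD, n = 3 each), where it was 49.9% and 52.4% on the other mRNAs. Peaks at the start codon made up 19.8% ± 2.99 and 17.1% ± 2.19, and peaks at the stop codon 16.7% ± 2.28 and 17.9% ± 0.614. The 5' untranslated region held 7.13% ± 1.08 in WT and 5.79% ± 0.371 in 5xFAD, and the 3' untranslated region 2.40% ± 0.998 and 2.94% ± 0.691. Coding sequence led in every mouse, and the shares at the start and stop codons overlapped between genotypes.

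Merging the peaks of all mice on the same strand gave 491 regions on kinase mRNAs. Coding sequence held 283 of them, the start codon 86 and the stop codon 81. A peak in all 6 mice was found at 46 regions (9.37%, against 8.62% of regions on other mRNAs), while 166 (33.8%, against 34.7%) rested on a single mouse. Kinase genes have many exons, which allows the exons with and without a peak to be set side by side within the same mRNAs. Of 1788 internal coding exons in the 135 kinase mRNAs whose transcript matched RefSeq gene models, 320 (17.9%) overlapped a peak in some mouse and 26 (1.45%) in all 6. On the other mRNAs the shares were 15.7% and 1.28%. The exons without a peak had a median length of 110 bases and 24.5% cytosine, those with a peak 142 bases and 27.7%, and the 26 with a peak in every mouse 189 bases and 31.8%. Longer exons were more often hit. A peak was listed on 10.4% of kinase exons of up to 100 bases, 15.9% of those of 101 to 150, 22.9% of those of 151 to 200, 41.0% of those of 201 to 300 and 58.3% of those above 300. The corresponding shares on the other mRNAs were 8.41%, 12.9%, 19.98%, 28.5% and 49.1%. These are descriptions across exons, which share libraries and genes, and were not tested.

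**Figure D1:**
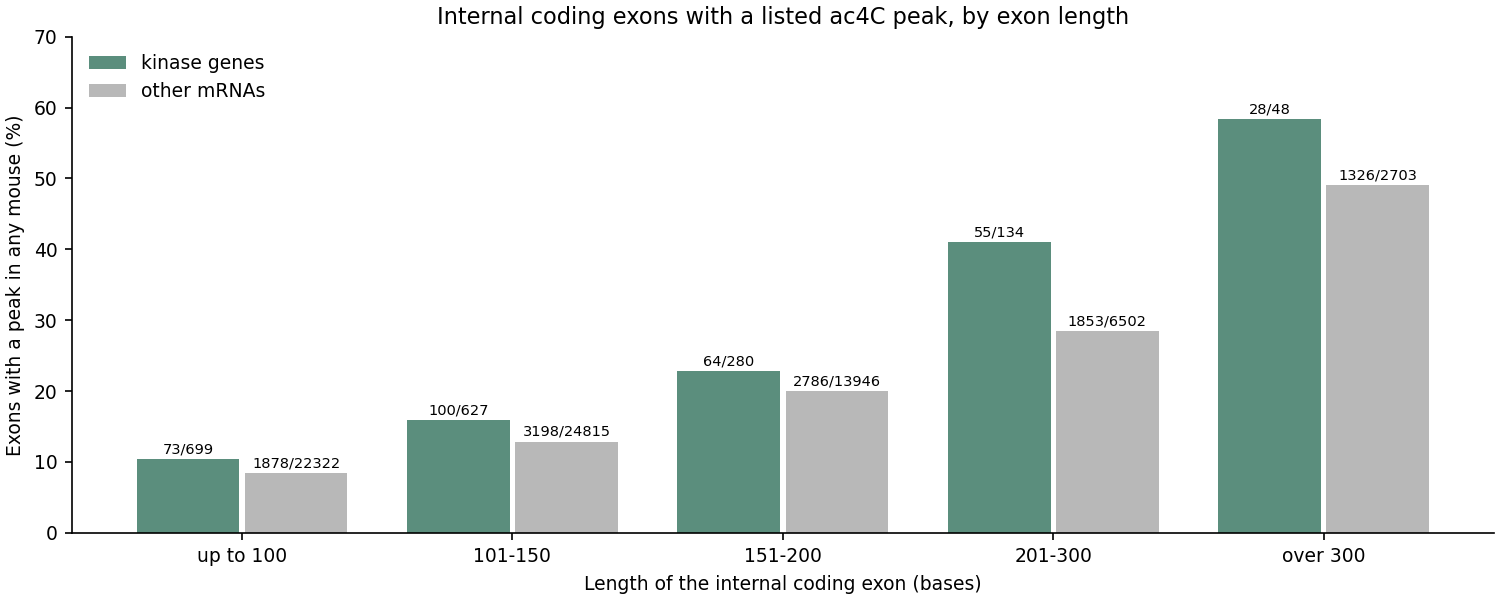
Bars give the share of internal coding exons that overlapped a peak in any mouse (y axis, percent) by exon length in bases (x axis), for kinase genes and other mRNAs, with the exons counted above each bar. The share on kinase mRNAs climbed from 10.4% in the shortest class to 58.3% in the longest and lay above that of the other mRNAs in each class.

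The 26 exons recurred in Hipk2, Ttbk1, Gsk3b, Mtor, Mark4, Tnik, Ulk1, Camk2d and other kinases. A repeat of a cytosine and any 2 bases, CNN 4 times in a row, was searched on the mRNA strand in the central 100 bases of each region of at least that length. It was present in 229 of 428 kinase regions (53.5%) and in 51.2% of regions on other mRNAs, while the opposite strand held it in 48.4% and 45.2%. Of kinase regions with a peak in all 6 mice, 52.4% held it, against 46.9% of those found in 1 mouse, and on the other mRNAs the shares were 62.9% and 44.2%. The following exons are shown because each carried a peak in all 6 mice. They are from the mRNA strand of GRCm38 (mm10), with bases in such repeats in capitals over the whole exon. Hipk2 exon 13 of 15 (chr6:38703439-38703686, minus strand) held 81 bases of repeat in 248 and Gsk3b exon 10 of 11 (chr16:38228678-38228776, plus strand) 36 in 99, while Ttbk1 exon 3 of 15 (chr17:46480101-46480248, minus strand) held none.
Hipk2 exon 13: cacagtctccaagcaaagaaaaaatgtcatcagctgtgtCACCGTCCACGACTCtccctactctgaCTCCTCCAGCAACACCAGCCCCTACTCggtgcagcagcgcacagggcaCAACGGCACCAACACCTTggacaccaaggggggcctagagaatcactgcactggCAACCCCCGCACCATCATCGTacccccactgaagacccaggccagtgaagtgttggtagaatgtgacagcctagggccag
Gsk3b exon 10: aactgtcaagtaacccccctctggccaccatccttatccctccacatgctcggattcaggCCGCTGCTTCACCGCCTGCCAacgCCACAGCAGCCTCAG
Ttbk1 exon 3: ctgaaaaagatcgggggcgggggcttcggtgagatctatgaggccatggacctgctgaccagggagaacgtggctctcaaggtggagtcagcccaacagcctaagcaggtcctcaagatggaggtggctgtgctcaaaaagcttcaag

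The fold enrichment of Hipk2 exon 13 was 30.5, 25.4 and 21.5 in WT and 37.7, 31.5 and 103 in 5xFAD mice. All 5xFAD values lay above the WT values, and mouse 3 was far above the rest. The Gsk3b exon had 11.3, 13.0 and 8.29 in WT and 10.9, 19.4 and 53.9 in 5xFAD, so the genotypes overlapped. The Ttbk1 exon had 31.8, 28.2 and 24.6 in WT and 36.0, 34.1 and 45.1 in 5xFAD, a level like that of Hipk2 although it holds no such repeat.

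Among kinase mRNAs, the highest mean summed fold enrichment over the 6 mice was that of Hipk2, a nuclear kinase that acts in the DNA damage response. Its values were 152, 110 and 128 in WT and 159, 112 and 421 in 5xFAD. 5xFAD mouse 3 was far above the other mice, which spanned a like range in both genotypes, and the log2 difference of 0.60 (SE 0.67) became -0.01 on the single scale. Ttbk1, a neuronal kinase of tau and tubulin, had 89.6, 78.5 and 124 in WT and 117, 146 and 157 in 5xFAD. Wnk2, of a family that controls chloride cotransporters, had 135, 113 and 33.1 in WT and 164, 156 and 62.4 in 5xFAD, and mouse 3 was lowest in both genotypes. Mark4, which phosphorylates tau and other microtubule proteins, had 97.7, 79.9 and 87.9 against 132, 101 and 107. Here the genotypes did not overlap on the deposited scale, but the log2 difference of 0.34 turned to -0.26 on the single scale. Next came Map4k4, with 35.9, 32.9 and 86.4 against 78.5, 91.7 and 149, and Tnik, with 43.9, 33.0 and 52.0 against 67.0, 53.1 and 201. Both, with Mink1, are kinases of the Misshapen group that act on the cytoskeleton and on JNK signalling. Cdk11b, a kinase of transcription and splicing, had 114, 6.97 and 64.4 against 96.9, 0 and 132, so that mouse 2 was lowest in both genotypes. Dyrk1a, a dosage-sensitive kinase that also phosphorylates tau, had 51.5, 30.2 and 35.1 against 70.7, 29.2 and 194. Mark1 had 35.02, 56.8 and 40.1 against 47.4, 83.9 and 112, and Mink1 59.8, 51.5 and 44.0 against 78.0, 73.1 and 66.9. The sum for Mink1 came from 1 region over its stop codon (chr11:70613629-70614483), found in all 6 mice. On the single scale the log2 differences of Ttbk1 (-0.07), Wnk2 (-0.06) and Mink1 (-0.11) were negative as well, and none of these mRNAs was called on either scale.

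**Figure D2:**
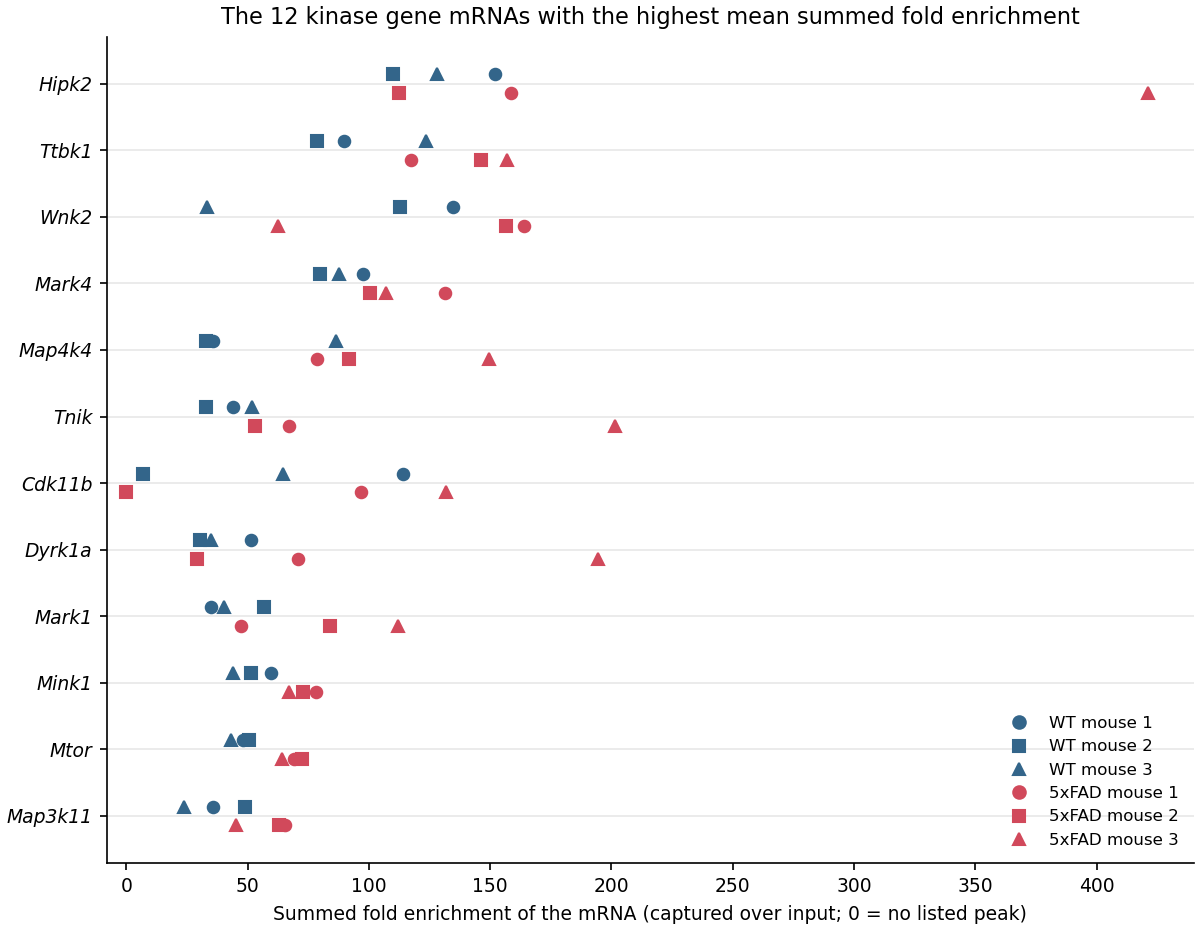
Summed fold enrichment (x axis, captured over input) of the 12 kinase mRNAs with the highest mean over the 6 mice (rows), 1 point per mouse, coloured by genotype, with the shape giving the replicate number. 5xFAD mouse 3 reached 421 for Hipk2 and 201 for Tnik.

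Of the calcium/calmodulin-dependent kinase genes and their partners, 12 had a peak, 11 were reliable and 2 were found in all 6 mice. Camk2a, the main subunit of the synaptic kinase, had no listed peak in any mouse. Camk2b, its partner subunit, had 1 region, in exon 2 of 21, at 20.3, 17.99 and 0 in WT and 21.5, 19.8 and 47.1 in 5xFAD. Camk2g had 20.6, 21.3 and 20.2 in WT and 29.3, 42.6 and 56.1 in 5xFAD, and Camk2d 14.7, 11.7 and 9.69 against 15.0, 20.3 and 27.9. For both the genotypes did not overlap on the deposited scale. Camkk2, the upstream kinase that activates Camk1, Camk4 and AMPK, had 23.5, 32.0 and 9 against 44.1, 30.7 and 0. Camk2n1, an inhibitor of Camk2, had 17.7, 19.4 and 0 against 20.1, 20.3 and 0, with no peak in mouse 3 of either genotype.

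The MAP kinase cascade was the largest group, with 40 genes, 30 of them reliable and 11 found in all 6 mice. Mapk3, an ERK kinase at the end of the Ras pathway, had 12.6, 11.5 and 0 in WT and 11.4, 11.9 and 23.6 in 5xFAD. WT mouse 3 had no peak and 5xFAD mouse 3 the highest value. Mapk10, the neuronal JNK, had 45.3, 34.9 and 20.3 against 35.7, 38.3 and 73.2, and Map3k11, a kinase upstream of JNK, had 35.6, 48.9 and 23.9 against 65.5, 63.0 and 45.1. The JNK scaffold Mapk8ip1 had 9.64, 23.9 and 5.77 in WT and 37.6, 27.2 and 10.1 in 5xFAD. Within each replicate number the 5xFAD mouse was the higher for Map3k11 and Mapk8ip1 as deposited, but across numbers the genotypes overlapped. On the single scale the 5xFAD mouse was the higher only in number 1 for both mRNAs, and the lower in numbers 2 and 3.

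The genes named Prk, mainly subunits of protein kinase A, protein kinase C and AMPK, numbered 24, with 18 reliable and 11 in all 6 mice. They also take in Prkd1, Prkd2, Prkg1 and Prkx, which are other kinases, and Prkcdbp, Prkcsh, Prkrip1 and Prkrir, which are not kinases. Prkaca, the catalytic subunit of protein kinase A, had 0, 0 and 105 in WT and 21.2, 5.42 and 85.6 in 5xFAD. Most of that came from its first exon, over the start codon, which had a peak in WT mouse 3 (96.5) and 5xFAD mouse 3 (67.3) and in no other mouse. Prkag2, a regulatory subunit of AMPK, had 65.6, 7.35 and 45.7 against 57.5, 10.8 and 0.

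Among the tau and microtubule kinases, 13 of 14 were reliable and 11 of 14 were found in all 6 mice. Gsk3b had 20.5, 28.3 and 8.29 in WT and 18.4, 37.0 and 76.0 in 5xFAD, with overlap, whereas its paralogue Gsk3a had a peak only in WT mouse 2 (11.6). Mast1, a microtubule-associated kinase, had 5.36, 7.01 and 4.99 in WT and 75.0, 7.41 and 9.91 in 5xFAD, and its difference rested mainly on 5xFAD mouse 1. Cdk5, the neuronal kinase of tau, had a peak only in 5xFAD mouse 2 (5.24). Its activator Cdk5r1 had a peak only in mouse 2 of each genotype (7.15 and 7.37), and its other activator Cdk5r2 only in mouse 3 of each (25.0 and 13.6). Of the 18 genes named Cdk or Cdkl, 11 were reliable. Cdk16 had 36.0, 8.69 and 27.5 in WT and 33.9, 6.71 and 46.8 in 5xFAD, and mouse 2 was lowest in both genotypes.

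Smaller families followed the same lines. Wnk1 had 27.2, 7.41 and 14.3 in WT and 29.8, 11.9 and 116 in 5xFAD, and Wnk4 0, 9.82 and 4.21 against 7.07, 16.2 and 14.3. Stk39, the kinase that WNK kinases activate, had 0, 10.6 and 23.5 against 0, 22.6 and 41.7, with no peak in mouse 1 of either genotype. Stk40 had 14.3, 11.0 and 34.5 against 25.1, 19.8 and 36.6. Hipk3 had 8.12, 28.3 and 15.0 against 9.01, 37.8 and 0. Of the casein kinases, Csnk1g2 had 0, 15.3 and 34.4 against 0, 17.0 and 58.6, Csnk1e 16.2, 16.5 and 17.5 against 26.9, 26.7 and 21.1, and Csnk1g3 9.41, 6.22 and 9.42 against 7.53, 0 and 22.2. For Csnk1e the genotypes did not overlap on the deposited scale, but the sign of its log2 difference turned on the single scale. Ulk1, which starts autophagy, had 29.7, 42.9 and 19.6 against 42.0, 40.7 and 34.5, and Ulk2 12.6, 21.1 and 14.5 against 10.1, 32.9 and 22.6. Ulk4 had a peak only in WT mouse 1 (4.54) and 5xFAD mouse 2 (6.57).

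In the PI3K, AKT and mTOR group, 9 of 14 genes were reliable and 4 were found in all 6 mice. Mtor, the kinase that couples nutrients to protein synthesis and holds autophagy in check, had 48.2, 50.6 and 43.3 in WT and 69.3, 72.5 and 64.1 in 5xFAD. These values were close within each genotype and did not overlap, but limma gave a log2 difference of 0.53 (SE 0.49, adjusted p = 0.81), and on the single scale it was -0.08. The mRNA carried 5, 5 and 6 peaks in WT and 9, 8 and 7 in 5xFAD, spread over its 58 exons. Akt1 had 35.9, 34.1 and 26.1 against 43.8, 42.0 and 76.4, also without overlap. Akt2 had a peak only in 5xFAD mouse 2 (4.35). Pik3c2b, a class II lipid kinase, had 14.5, 23.5 and 8.84 against 35.6, 25.0 and 54.4 (log2 difference 1.27, SE 0.62, adjusted p = 0.58). Pik3cd, a class I catalytic subunit of leukocytes, had 8.91, 8.55 and 4.08 against 21.4, 30.8 and 0.

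Within Mtor, exon 11 (chr4:148464303-148464547, plus strand), exon 39 (chr4:148536511-148536759) and exon 48 (chr4:148545510-148545657) had a peak in all 6 mice. Exon 11 had 16.2, 18.2 and 11.1 in WT and 11.5, 11.6 and 11.6 in 5xFAD, exon 39 had 11.8, 7.66 and 6.49 against 11.2, 10.9 and 10.7, and exon 48 had 9.48, 7 and 7.44 against 8.37, 7.76 and 10.8. In these the genotypes overlapped as deposited. With the scale factors applied, exons 11 and 48 lay lower in all 5xFAD mice than in all WT mice, and exon 39 overlapped. The larger deposited sum in 5xFAD mice, which was gone on the single scale, came with further exons. Exon 14 (chr4:148468250-148468372) had 0, 0 and 5.30 in WT and 7.93, 6.44 and 8.54 in 5xFAD. Exon 16 (chr4:148469367-148469459) had a peak in no WT mouse and 5.43, 6.63 and 9.04 in 5xFAD. Exons 11, 39 and 16 are shown because the first pair had a listed peak in every mouse and exon 16 only in 5xFAD mice. Capitals again mark the CNN repeats, of which exon 16 has none.
Mtor exon 11: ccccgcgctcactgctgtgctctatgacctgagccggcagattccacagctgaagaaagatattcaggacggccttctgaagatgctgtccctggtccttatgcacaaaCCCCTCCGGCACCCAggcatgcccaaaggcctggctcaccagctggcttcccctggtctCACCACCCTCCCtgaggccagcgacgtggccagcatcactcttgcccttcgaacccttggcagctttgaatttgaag
Mtor exon 39: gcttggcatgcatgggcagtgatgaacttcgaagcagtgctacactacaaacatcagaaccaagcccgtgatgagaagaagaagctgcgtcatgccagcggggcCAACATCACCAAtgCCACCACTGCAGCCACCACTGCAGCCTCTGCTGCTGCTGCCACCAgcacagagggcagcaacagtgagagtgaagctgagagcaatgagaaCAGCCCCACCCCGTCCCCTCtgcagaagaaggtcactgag
Mtor exon 16: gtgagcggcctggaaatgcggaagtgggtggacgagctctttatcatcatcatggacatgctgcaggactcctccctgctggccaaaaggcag

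**Figure D3:**
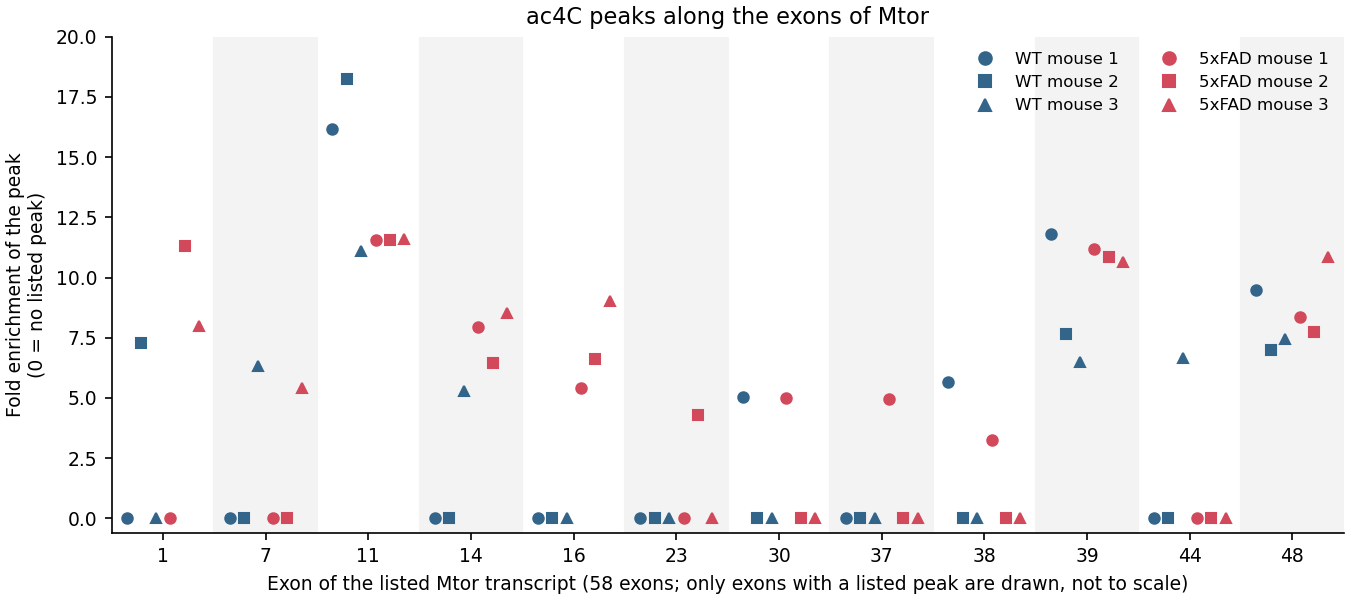
Fold enrichment (y axis, 0 where no peak was listed) of the peak in each mouse (points) on the exons of Mtor that carried a peak in any mouse (x axis, exon number, not to scale). The peaks of exons 11, 39 and 48 stood in all 6 mice, and that of exon 16 only in the 3 5xFAD mice.

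The comparison of genotypes was made over all 5444 reliable mRNAs with limma on log2(summed fold enrichment + 1). No kinase mRNA passed an adjusted p of 0.05, 0 of 113 where the share over all mRNAs was also 0%. Among the 87 reliable in both genotypes, 0 passed in a fit of those mRNAs alone (0% of all 3851), with a smallest adjusted p of 0.90. At an unadjusted p under 0.05, 6 kinase mRNAs were higher in 5xFAD and 0 lower, where the background was 5.03% higher and 0.606% lower. All 3 5xFAD values lay above all 3 WT values in 22 of 113 (19.5%, background 14.7%), and the reverse was seen in 0 (background 0.771%). On the single scale these counts were 6 higher (5.31%, background 4.94%) and 4 lower (3.54%, background 3.62%). The kinase shares were thus near those of all mRNAs once the mice were on 1 scale. Mark4, Mink1, Mtor, Akt1, Camk2g, Camk2d and Csnk1e were among the 22 and not among the 6.

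Of the 113, 90 had a positive and 23 a negative log2 difference (79.6% positive, against 75.0% of all mRNAs), and on the single scale 60 and 53 (53.1%, against 51.5%). The median log2 difference was 0.60 for kinase mRNAs and 0.54 for all, and 0.070 and 0.021 on the single scale. Within replicate numbers 1, 2 and 3, the median log2 ratio of 5xFAD to WT was 0.37, 0.27 and 0.75 on kinase mRNAs and 0.26, 0.27 and 0.76 on all. The 5xFAD mouse was the higher in all 3 numbers for 45 kinase mRNAs (39.8%, against 30.2% of all) and on the single scale for 12 (10.6%, against 10.7%). By family the median lay between 0.40 for the ULK kinases and 1.23 for the 3 WNK kinases. On the single scale it ran from -0.20 to 0.64, and no family had a called member.

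**Figure D4:**
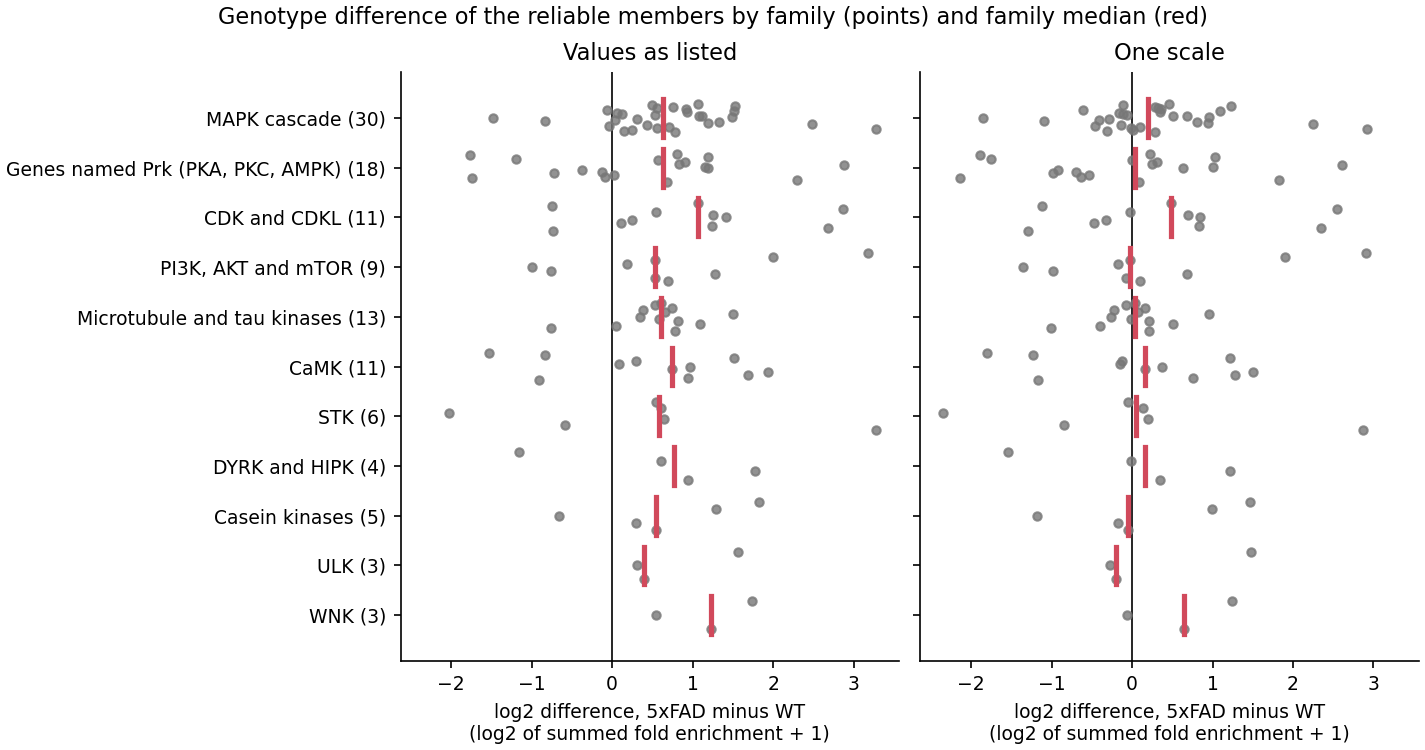
Log2 difference, 5xFAD minus WT (x axis), of each reliable kinase mRNA (points) and the median (red bars) by family (rows, with the number of mRNAs), as listed (left) and on the single scale (right). Medians of 0.40 to 1.23 on the deposited scale moved to between -0.20 and 0.64.

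The smallest p-values belonged to mRNAs with few or no peaks in WT. Pik3r5, the regulatory subunit of the PI3K gamma of leukocytes, had no peak in WT and 5.35, 7.98 and 12.01 in 5xFAD (adjusted p = 0.093). Prkcdbp, a caveolar coat protein also named Cavin3 and no kinase, had no peak in WT and 6.36, 4.98 and 7.96 in 5xFAD (adjusted p = 0.10). No further kinase-named mRNA was listed in all 3 mice of 1 genotype and in no mouse of the second. These 2 were 1.30% of the kinase genes, near the 1.16% of all genes with that pattern. The reverse pattern was found in 0 kinase genes and in 0.276% of all genes. The peaks of Pik3r5 and Prkcdbp each covered the stop codon, at chr11:68496150-68497120 (plus strand) and chr7:105480607-105481219 (minus strand). Stk10, a kinase of lymphocytes that acts on the cortical cytoskeleton, had 4.03, 4.43 and 0 in WT and 16.3, 27.6 and 49.8 in 5xFAD (log2 difference 3.28, SE 0.87, adjusted p = 0.39). Map3k1, upstream of JNK and ERK, had 0, 5.54 and 0 against 10.5, 20.2 and 23.7 (adjusted p = 0.44), and Cdk5rap2, a centrosome protein, 3.87, 0 and 0 against 12.6, 12.4 and 9.40 (adjusted p = 0.42). Pik3r5, Prkcdbp, Map3k1 and Cdk5rap2 were reliable only in 5xFAD and entered the comparison through the genotype in which they were high, so they had to differ and their p-values are no support for a difference. Stk10 was reliable in both genotypes. For all 5 the genotypes stayed apart on the single scale. A scale factor leaves a value of 0 at 0, so for Pik3r5 and Prkcdbp this could not have come out otherwise. Map3k1 and Cdk5rap2 had a peak in only 1 WT mouse, so for them it adds little. Hipk1 had 4.10, 8.96 and 4.08 against 17.4, 9.95 and 50.6, Cdk18 20.8, 12.8 and 5.65 against 29.2, 28.4 and 42.3, and Cdk19, a kinase of the Mediator complex, 9.60, 6.44 and 4.00 against 17.5, 11.5 and 22.1. Each of these had an adjusted p of 0.58, and of the 3 only Cdk18 kept the genotypes apart on the single scale.

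Microglial markers lay higher in the same mice. Of 12 listed, 10 had a peak, 9 with a positive and 1 with a negative log2 difference and 0 passing the test, and their summed fold enrichment was 24.9 to 49.6 in WT and 203 to 234 in 5xFAD. Aif1 and Trem2 had no listed peak. With the mice on 1 scale the microglial sums were 35.3 to 58.8 in WT and 155 to 186 in 5xFAD, with 8 positive and 2 negative log2 differences. The sums of the other cell types also lay higher in 5xFAD as deposited for neuron markers (132 to 205 in WT and 266 to 306 in 5xFAD, Neurod2 unlisted), oligodendrocyte markers (167 to 239 and 252 to 297, Mog among the unlisted) and endothelial and mural markers (23.3 to 52.7 and 61.3 to 136, 5 of 8 unlisted), while the astrocyte markers overlapped (65.3 to 117 and 110 to 187, Aqp4 and Gja1 unlisted). All 4 overlapped on the single scale, with neuron sums of 187 to 231 and 202 to 249, oligodendrocyte sums of 215 to 283 and 166 to 272, endothelial and mural sums of 33.0 to 62.6 and 53.2 to 89.95 and astrocyte sums of 77.5 to 132 and 87.7 to 162. The part of microglial mRNA in the values of Pik3r5, Stk10, Map3k1 and Pik3cd was not tested.

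Lower values in all 5xFAD mice than in all WT mice were seen on the single scale in 4 kinase-named mRNAs. Prkcsh, the glucosidase subunit, had 22.8, 32.9 and 25.2 in WT and 28.1, 7.21 and 6.43 in 5xFAD as deposited, and 25.7, 39.1 and 35.7 against 24.4, 6.62 and 4.25 on the single scale (log2 difference -1.76). Map4k2 had 23.4, 8.87 and 8.89 against 10.9, 8.34 and 0 as deposited, with a log2 difference of -1.86 on the single scale. The other 2 were regulatory subunits of protein kinase A, with smaller differences. Prkar2b had 15.3, 12.8 and 11.9 against 14.3, 14.8 and 8.17 (-0.69 on the single scale), and Prkar1a 8.07, 6.33 and 14.6 against 8.30, 6.97 and 10.8 (-0.64). The remaining regulatory subunits of this kinase overlapped on the single scale, Prkar1b at 20.6, 18.4 and 8.31 against 11.1, 9.76 and 8.95 and Prkar2a at 9.83, 0 and 8.46 against 12.3, 0 and 0. As deposited, Prkcsh, Map4k2, Prkar2b and Prkar1a overlapped between genotypes, and none was called on either scale.

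Of the 491 regions, 250 were found in at least 2 mice of a genotype and were compared over all 10027 such regions. None was called on the deposited scale (0 of 250, background 0%, smallest adjusted p = 0.086). At an unadjusted p under 0.05, 12 regions were higher in 5xFAD and 1 lower, where the background was 4.57% and 0.539%. On the single scale 4 regions were called, all higher in 5xFAD (background 1.52% higher and 0.429% lower). With the replicate number as a block as well, 0 were called, with a smallest adjusted p of 0.091. The 4 were the stop codon regions of Pik3r5 and Prkcdbp, exon 16 of Mtor and exon 10 of 21 of Camk2g (chr14:20764146-20764268, minus strand), the same regions that had a peak in 3 of 3 5xFAD and 0 of 3 WT mice. These 4 entered the comparison only through 5xFAD, with WT at 0 in every mouse, so that they had to differ and the calls are no support for a difference. That pattern made up 0.815% of kinase regions and 1.20% of regions on other mRNAs. The reverse pattern was found in 0 of 491 kinase regions and in 47 of 19547 regions on other mRNAs. At so low a rate, 0 among the kinase regions is no result about them.

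Camk2g exon 10 had no peak in WT and 5.04, 5.23 and 8.22 in 5xFAD (adjusted p = 0.093 on the deposited scale). The same exon of its paralogue Camk2d (chr3:126796838-126796960, plus strand) had a peak in every mouse, at 8.02, 11.7 and 6.46 in WT and 8.46, 10.4 and 19.8 in 5xFAD. Both exons have 123 bases, of which 98 (79.7%) are identical, with a longest identical run of 14 bases. They are shown because the paralogous exons differed in where a peak was listed. The Camk2d exon holds 1 CNN repeat and the Camk2g exon none.
Camk2d exon 10: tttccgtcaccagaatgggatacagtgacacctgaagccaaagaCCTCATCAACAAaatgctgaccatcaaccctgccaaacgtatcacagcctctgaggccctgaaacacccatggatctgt
Camk2g exon 10: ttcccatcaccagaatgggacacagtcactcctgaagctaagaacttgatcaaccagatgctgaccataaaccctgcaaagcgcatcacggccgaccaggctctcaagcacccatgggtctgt

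In the other direction the smallest p belonged to exon 11 of 20 of Cdk11b (chr4:155641515-155641690, plus strand), with 7.93, 6.97 and 11.5 in WT and 6.13, 0 and 0 in 5xFAD (log2 difference -2.32, adjusted p = 0.48). Its sequence is given as the exon with the lowest p among regions below WT, and it holds no such repeat.
Cdk11b exon 11: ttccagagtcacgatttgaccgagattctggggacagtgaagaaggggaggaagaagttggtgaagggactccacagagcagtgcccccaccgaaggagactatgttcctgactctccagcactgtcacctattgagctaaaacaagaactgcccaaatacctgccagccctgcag
Exon 7 of Hipk2 (chr6:38737358-38737520, minus strand) had 9.32, 14.9 and 0 in WT and no peak in 5xFAD. This exon overlaps 4930502C15Rik, a gene on the opposite strand. A start codon region of Mapk10 (chr5:103099957-103100081, minus strand) had 11.7, 0 and 8.92 in WT and no peak in 5xFAD, and exon 4 of 12 of Stk32c (chr7:139122829-139123002) had 8.42, 0 and 10.7 and no peak in 5xFAD. None passed the adjusted threshold. These regions, with that of Cdk11b, entered the comparison only through WT, the genotype in which they were high. Their lower values in 5xFAD and their p-values are therefore no support for a difference. Among the other regions with a peak in all 6 mice and the highest means was the first exon of Ttbk1, in the 5' untranslated region, at 31.3, 30.7 and 23.2 in WT and 36.7, 35.9 and 44.0 in 5xFAD. Like Hipk2 exon 13, it lay above WT in all 5xFAD mice on the deposited scale, while the log2 differences of exons 1 and 3 of Ttbk1 turned negative on the single scale.

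As across all mRNAs, the presence of a peak on kinase mRNAs matched more often between mice of the same replicate number. In 26 kinase genes (16.9%, against 15.5% of all genes) the same numbers, but not all 3, had a peak in WT and in 5xFAD. Both mice numbered 3, and no other, had a peak on Cdk13, Cdk5r2, Mapk14, Pik3r3 and Prkrir, and both numbered 2, and no other, on Cdk2ap2, Cdk5r1, Csnk1d, Mapk6 and Prkaa2. Both mice numbered 1 alone had a peak on Map3k19 and Stk4, whereas Csnk1g2 and Stk39 were among 5 genes that lacked it in those mice only. Cdk13, a kinase of transcription elongation, reached 38.6 in WT mouse 3 and 76.5 in 5xFAD mouse 3 with no peak elsewhere. Presence matched between a WT and a 5xFAD mouse of the same number in 79.2%, 82.5% and 72.7% of the 154 genes, and between mice of different numbers in 61.7% to 70.1%. Over all 7598 genes the shares were 76.8%, 76.7% and 68.2% for the same number and 62.0% to 64.9% for different numbers, so this is a property of the series and not of kinase mRNAs alone.

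The same held for single exons. Exon 9 of Wnk2 had a peak only in mice numbered 3 (26.8 in WT and 40.9 in 5xFAD) and exon 3 of Cdk11b only in mice numbered 1 (33.9 and 32.2). Exon 12 of Hipk2 lacked a peak in mouse 2 of both genotypes, with 28.4, 0 and 20.7 in WT and 36.7, 0 and 88.8 in 5xFAD. In all, 124 of 491 kinase regions (25.3%) and 23.2% of regions on other mRNAs had a peak in the same numbers of both genotypes but not in all 3. The labels do not say what a number marks, and its part in these values was not tested.

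**Figure D5:**
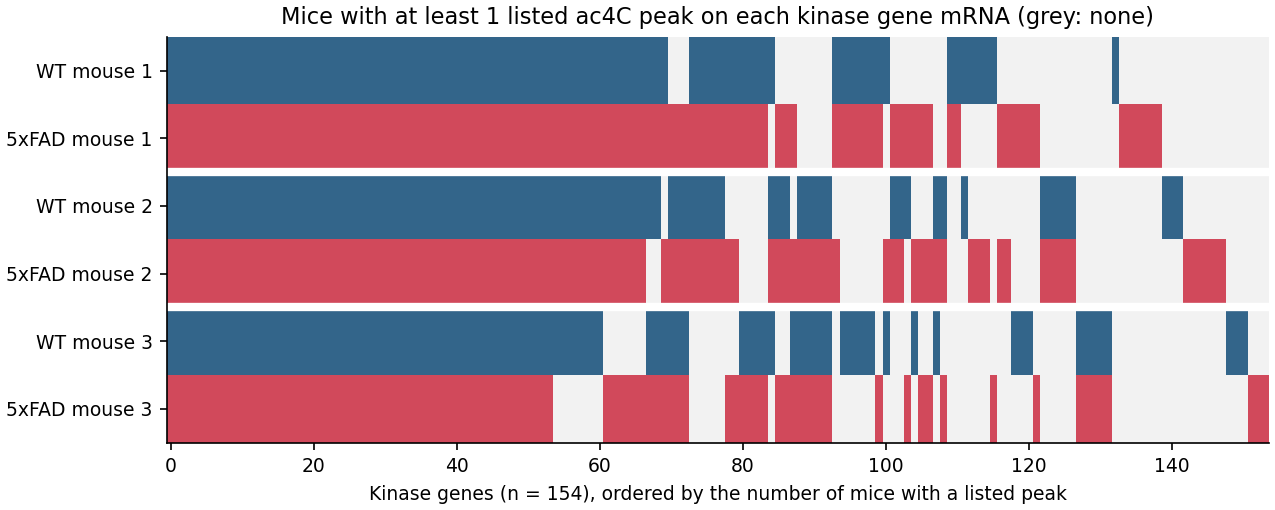
Each of the 154 kinase genes is a column (x axis, ordered by the number of mice with a peak) and each mouse a row, coloured where a peak was listed and grey where none was, with the WT and 5xFAD mice of 1 replicate number next to each other. All 6 mice shared a peak on 54 genes, and 26 genes had one in the same numbers, but not all 3, of WT and 5xFAD.

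Genes of the same pathways outside the kinase families, taken from lists of known partners, gave no call either. Of 26 partners of PI3K, AKT and mTOR, 23 had a peak and 17 were reliable, with 11 positive and 6 negative log2 differences and a median of 0.51 (0.046 on the single scale). Of 28 Ras and MAP kinase partners, 18 were reliable, with 17 positive and 1 negative and a median of 0.56 (0.019 on the single scale). Of 25 calcium, calmodulin and cAMP partners, 15 were reliable, with 14 positive and 1 negative and a median of 0.79 (0.20). Of 14 tau partners and substrates, all had a peak and 11 were reliable, all 11 positive, with a median of 0.78 (0.36). On the single scale the positive and negative counts were 9 and 8, 9 and 9, 10 and 5, and 7 and 4. Over all reliable mRNAs 75.0% were positive with a median of 0.54, and 51.5% with a median of 0.021 on the single scale. Eif4ebp1 and Ppp3ca had no peak in WT and entered only through 5xFAD, so they had to be positive. Inpp4a and Mapkap1, both negative, were reliable only in WT. All 4 lists had 0 members past the adjusted threshold, as had all 5444 reliable mRNAs.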

How the data were processed

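RNA from hippocampus of 3 WT and 3 5xFAD mice was sequenced as input, anti-ac4C IP and IgG libraries, as described above. Per the methods, the authors trimmed reads with cutadapt (version 1.9.3), aligned them with HISAT2 (2.04 in the submitters' processing notes) to mm10 and called peaks with MACS per mouse against its own input, removed peaks shared with IgG and kept exonic peaks. The treatment of reads with several alignments is not stated, so values of close paralogues may share reads. The deposited tables give per peak a fold enrichment (a ratio to input, per the methods after subtraction of IgG), a score of the peak caller, which rises as its p falls, and a false discovery rate in percent, each as deposited by the authors. These tables hold no read counts, so the depth per sample, and with it any counting interval, is unknown, and the mRNA level is not known from them. Only the peak tables were used.

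Fold enrichments were summed per gene and mouse and compared with limma (version 3.58.1, R 4.3.3) on log2(sum + 1), over all mRNAs reliable in a genotype (peaks in 2 or 3 of its mice), with Benjamini-Hochberg adjustment and a threshold of 0.05. The fold change on this scale understates that of low values. Regions were merged from same-strand peaks sharing 1 bp or more, each with its highest fold enrichment. Exons and sequences were read from the RefSeq models and genome of GRCm38. The fit was tested on simulated data. The rule for named genes took the 10 highest means, the smallest p per direction among genes with no overlap between genotypes, genes with peaks in 3 against 0 mice, the 3 highest means of each family, a few regions by p or level, and well-known hippocampal kinases. Some genes taken by this rule are not reported here. The kinase genes, families and lists were chosen with earlier results of these data known.

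Samples of 1 replicate number deviated together across genotypes. The correlation of their deviations from the genotype means over the 113 reliable kinase mRNAs was 0.62, 0.55 and 0.34 for numbers 1, 2 and 3. All correlations between different numbers were negative, in part because deviations from a genotype mean sum to 0 within that genotype. The numbers were taken to pair the samples by the positive values alone, since the labels do not say what they mark. Separate mice are assumed from the labels' replicates. P-values measure the spread between these samples only. Alternatives were a single scale, the replicate block, other filters, another pseudocount, quantile normalization and leaving out each mouse.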

Additional observations from a re-analysis of the deposited data

How the results depend on the processing

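The median log2 difference of the 113 reliable kinase mRNAs, 0.60 as deposited, was 0.070 on the single scale, 0.055 after quantile normalization and 0.070 on the single scale with the replicate block. Of 43 named mRNAs tested, 12 changed sign on the single scale, among them Hipk2, Ttbk1, Wnk2, Mark4, Mink1, Mtor and Ulk1, none of them called. Kinase mRNAs with higher values in all 5xFAD mice, 22 as deposited, numbered 6 on the single scale, 14 with peaks of a caller score of at least 50 and 11 when every mouse was given as many of its strongest peaks as the mouse with fewest. Those lower, 0 as deposited, numbered 4 on the single scale and 1 with equal peaks. With equal peaks the kinase mRNAs reliable only in 5xFAD fell from 17 to 10. Over all mRNAs, 14.7% were higher and 0.771% lower without overlap as deposited, and 4.94% and 3.62% on the single scale. Shares over all mRNAs were not computed for the caller score and equal peak settings, so those counts are no result about kinase mRNAs.

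With the replicate numbers as a block, 0 kinase mRNAs and 0 regions were called and the median stayed 0.60, and pairing changed no call on the deposited scale. Called mRNAs, 0 in the main fit, numbered 2 with a pseudocount of 0.1 (Pik3r5 and Prkcdbp, of 109 called in all) and the same 2 with the highest peak in place of the sum (of 83 in all). Called regions, 0 in the main fit, numbered 4 on the single scale and 4 with a pseudocount of 0.1, but 0 on the single scale with the replicate block. Leaving out each mouse gave 0 to 4 called mRNAs, 0 called among those reliable in both genotypes and 0 to 20 called regions. These region counts, like the 4 with a pseudocount of 0.1, are given without the share over all regions. They are therefore no result about kinase regions. The highest counts came without 5xFAD mouse 3, when Pik3r4, Pik3r5, Prkcdbp and Ulk3 were called among 247 mRNAs in all. No WT mouse had a peak on any of these 4, and they entered only through 5xFAD. Their calls here, and those of Pik3r5 and Prkcdbp under the other settings, are therefore no support for a difference. Under the same settings, 8 to 36 mRNAs were reliable only in 5xFAD, 2 to 27 only in WT and 68 to 76 in both, and the median was 0.54 to 0.78. Without 1 mouse, an mRNA had to have a peak in both remaining mice of that genotype. A mean-variance trend, added after seeing the data as was the single scale with the block, called 0. The unknown depth limits all of these values, and a missing peak is no measure of absence.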
